A study of Rattus norvegicus with 4 samples.

Results

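The 40 genes described here are 17 glycolytic enzymes and 23 other genes that cells use to import glucose, export lactate, divert pyruvate and respond to low oxygen. They were listed by name, and every gene was found on the array, 3 of them under an older symbol (Kdm3a as Jmjd1a, Ankrd37 as RGD1565715 and Pkm as Pkm2). They carried 50 of the 41012 probes, and all 50 were well above background on all 4 arrays, so no gene was lost to the detection filter among the 22012 genes and unnamed transcripts tested. The study measured RNA in testicular peritubular myoid cells, the contractile cells that wrap the seminiferous tubule. Cells of 2 arrays were given testosterone at 1e-07 M in pulses, and the cells of the other 2 arrays were labelled control. All 4 samples were total RNA from cells of 40-day-old male rats kept for 4 days in medium with defined growth factors, labelled with Cy3. The labels attach the same treatment text to all 4 samples, and the titles and source names alone set the groups.

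Glycolysis turns glucose into pyruvate, and lactate dehydrogenase turns pyruvate into lactate when it is not sent to the mitochondria. Under low oxygen the transcription factor HIF-1, whose oxygen-regulated subunit is Hif1a, escapes hydroxylation by the Egln enzymes and switches on many glycolytic genes together with genes for angiogenesis, mitophagy and collagen hydroxylation. In the testis, lactate made by somatic cells is known to feed germ cells, and androgen acts on peritubular cells through the androgen receptor.

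HIF-1 is known to bind DNA at a short core that reads ACGTG or GCGTG, so the RefSeq promoter windows (GRCr8, 250 bases before to 50 bases after the annotated start) were searched for these letters on both strands, an ACGTG that reads the same on both strands within CACGTG counting as 2 overlapping matches. Windows were matched by symbol for 36 of the 40 genes, which gave 42 windows of 300 bases. No window is given for Pgk1, Slc2a3, Bnip3l and Ero1l. Of the 42 windows, 29 (69%) held a match, against 41.6% of all 33469 windows. Their median GC content was 63.6%, against 51.7% over all windows, and among windows with at least 60% GC the shares were 24 of 28 (85.7%) and 68.3% of 8777. A match held for 14 of 20 enzyme windows and 15 of 22 windows of the other genes. A match describes letters and is not a measured binding site. The windows of Egln3 and Adm and both windows of Vegfa held 0 matches, and those of Kdm3a held 0 and 1. Below are 4 windows chosen among those with matches, 5′ to 3′ on the gene's strand, with the matches in capitals. Bnip3 (chr1:203154913-203155212, minus strand, 4 matches) and P4ha1 (chr20:27844796-27845095, plus strand, 3 matches) belong to genes whose testosterone arrays both lay above the control arrays. Ankrd37 (chr16:53001257-53001556, plus strand, 5 matches) belongs to a gene with one of the larger differences. Ldha (chr1:106507842-106508141, plus strand, 6 matches) belongs to the lactate-forming enzyme.
Bnip3: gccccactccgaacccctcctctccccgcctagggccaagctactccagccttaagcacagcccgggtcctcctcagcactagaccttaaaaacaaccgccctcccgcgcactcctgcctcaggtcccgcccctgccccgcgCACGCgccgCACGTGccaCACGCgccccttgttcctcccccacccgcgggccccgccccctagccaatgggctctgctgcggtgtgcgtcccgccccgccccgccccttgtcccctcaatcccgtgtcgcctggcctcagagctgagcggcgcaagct
P4ha1: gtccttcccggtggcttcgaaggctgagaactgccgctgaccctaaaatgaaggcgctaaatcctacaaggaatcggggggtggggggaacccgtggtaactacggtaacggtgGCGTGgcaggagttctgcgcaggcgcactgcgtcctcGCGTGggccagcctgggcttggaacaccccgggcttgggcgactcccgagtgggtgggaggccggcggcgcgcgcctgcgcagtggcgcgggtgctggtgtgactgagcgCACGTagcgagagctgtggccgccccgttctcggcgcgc
Ankrd37: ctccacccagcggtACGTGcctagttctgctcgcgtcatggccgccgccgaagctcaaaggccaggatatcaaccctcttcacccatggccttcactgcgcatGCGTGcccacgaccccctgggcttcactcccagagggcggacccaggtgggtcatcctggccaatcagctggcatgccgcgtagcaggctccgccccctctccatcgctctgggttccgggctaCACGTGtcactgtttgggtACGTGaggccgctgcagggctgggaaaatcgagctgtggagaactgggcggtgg
Ldha: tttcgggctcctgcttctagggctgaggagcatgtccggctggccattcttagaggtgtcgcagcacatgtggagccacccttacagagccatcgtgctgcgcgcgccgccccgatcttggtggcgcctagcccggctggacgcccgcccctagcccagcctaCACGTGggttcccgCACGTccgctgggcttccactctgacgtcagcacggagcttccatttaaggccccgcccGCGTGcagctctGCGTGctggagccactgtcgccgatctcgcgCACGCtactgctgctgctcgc

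All 4 arrays lay on 1 slide and were read in 1 scan, each with 45018 spots. Between 63.5% and 68.2% of the non-control spots were well above background. Control array 1 had 123 spots that dropped over 2 log2 below each of the other arrays, all in array columns 57 to 85, and the other arrays had 0. The arrays numbered 1 held slide positions 3 (testosterone) and 4 (control) and those numbered 2 held positions 1 (testosterone) and 2 (control), so replicate number and slide position cannot be told apart. Of 10 peritubular myoid markers, Acta2 and Myh11 had no probe by that name, Cnn1 was well above background on no array, and 6 were well above background on all 4, Tpm2 the brightest. Their summed signal, in multiples of each array's 75th percentile, was 186 and 237 on testosterone arrays 1 and 2, against 215 and 243 on control arrays 1 and 2. Markers of other testicular cells were also read, 8 of 12 for Sertoli cells, 6 of 8 for Leydig cells, 7 of 8 for macrophages, 6 of 7 for fibroblasts, 3 of 7 for endothelium and 0 of 4 for erythroid cells being well above background on all 4 arrays.

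The question asked of the arrays was which genes testosterone induces in these cells. No glycolysis or hypoxia gene passed the test. Over all 22012 genes, 0 were called higher and 0 lower at an adjusted p under 0.05 in limma (0.00% in each direction), and the smallest adjusted p was 1.00. At an unadjusted p under 0.05 there were 174 genes (0.790%), and 0 of the 40 were among them. With the replicate number as a block, 2.80% of all genes and 0 of the 40 had such a p. Levels are log2 processed signals minus the array's 75th percentile, and differences are testosterone minus control on that scale, with a 95% interval from limma. The labels do not say whether the arrays of a group came from separate animals or cultures, so p-values and intervals measure only the spread between these arrays. In RNA from a whole culture, fewer cells of a type and less RNA per cell cannot be told apart.

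The differences were small and mostly of one sign. They were above 0 for 35 of the 40 genes (87.5%), against 47.9% of all genes tested. When arrays were centred on their medians in place of the 75th percentile, the count was 27 of the 40, against 31.9% of all genes. After normexp background correction and quantile normalization it was 32, against 43.6%. The median difference was 0.10, against -0.01 over all genes, and under median centring 0.03, against -0.07. All 40 intervals included 0, with a median distance from the difference to either end of 0.70. For 39 of the 40 the groups were less than 1.5-fold apart, as they were for 96.3% of all genes, the exception being Pdk1. For 5 genes both testosterone arrays were higher than either control array, namely Pfkp, Bnip3, Egln3, Kdm3a and P4ha1, beside 6.03% of all genes. For 0 genes were both lower than either control array, beside 9.10% of all genes, though after normexp and quantile normalization this held for 2 (Pgam1 and Eno1) and with the mean over probes for 1 (Hk1). The sign of the median turned when testosterone array 2 was left out (-0.11, 13 of 40 above 0), and without control array 1 the median was 0.00 (20 of 40 above 0). The sign changed for 24 of the 40 genes without testosterone array 2 and for 19 without control array 1.

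**Figure D1:**
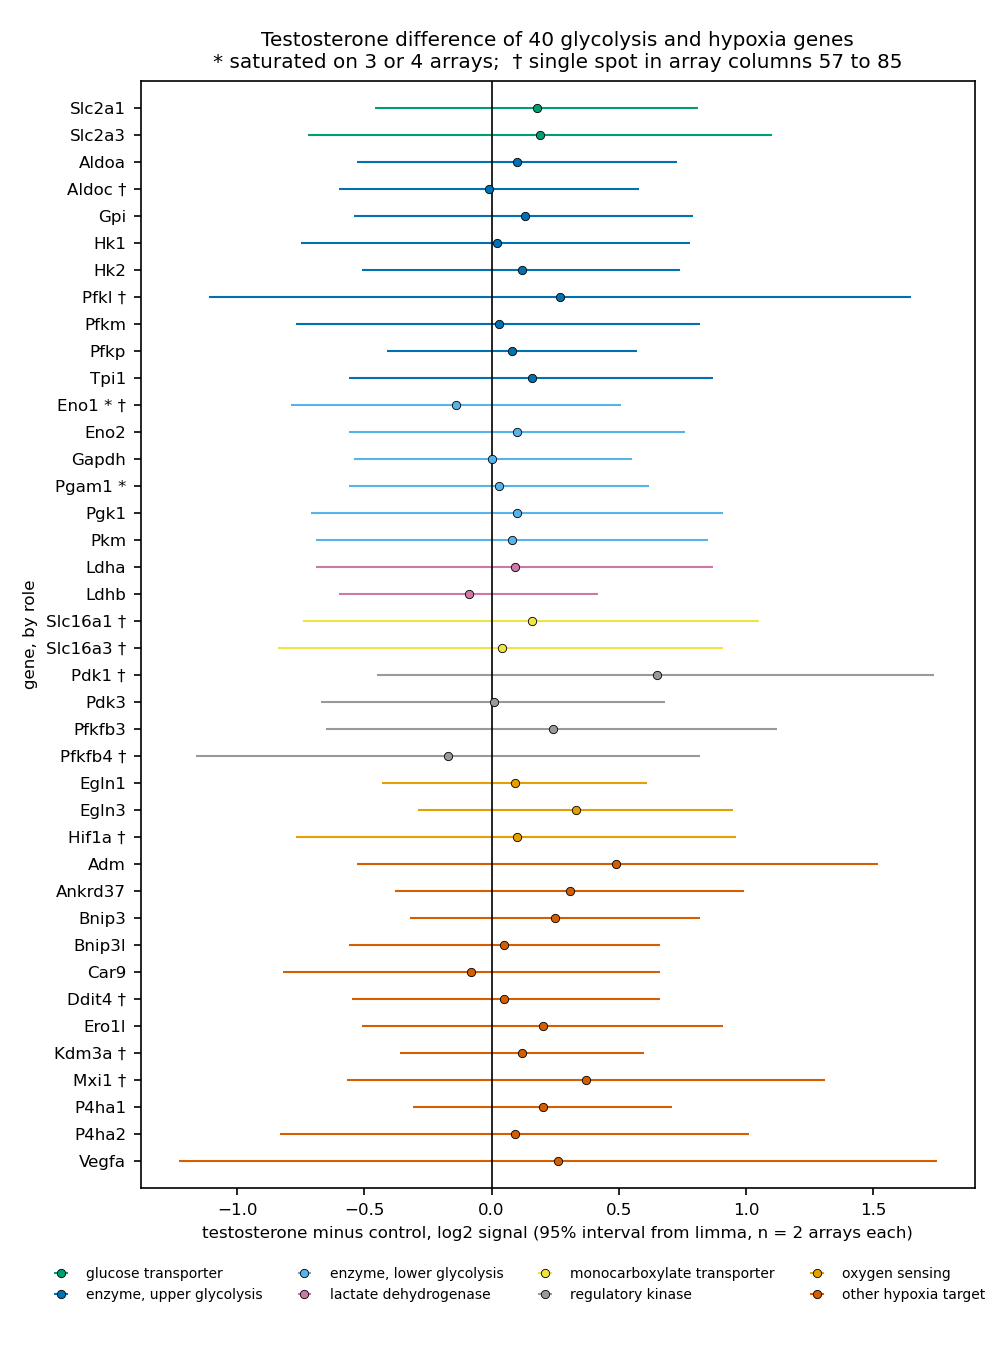
Testosterone minus control difference of each of the 40 genes in log2 signal (x axis), grouped by role from top to bottom. Points are differences of 2 testosterone and 2 control arrays and bars are 95% limma intervals. The plot shows 35 points above 0 (27 under median centring) and every bar crossing 0.

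Glucose enters through facilitative transporters. Slc2a1, which encodes the widespread transporter GLUT1, read 4.73 and 5.17 on the testosterone arrays, against 4.70 and 4.85 on the control arrays. Testosterone array 2 was high and the other 3 were close together, so the groups overlapped, and the difference was 0.18 (-0.46 to 0.81). They did not overlap after normexp and quantile normalization or under median centring, and without testosterone array 2 the difference was -0.04. Slc2a3, for the high-affinity transporter GLUT3, read -2.83 and -3.67 with testosterone, against -3.52 and -3.37 in control. Its testosterone arrays enclosed its control arrays, and the difference of 0.19 (-0.72 to 1.10) was 0.69 within number 1 and -0.31 within number 2.

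The 9 enzymes from hexokinase to triose phosphate isomerase had 8 differences above 0 and a median of 0.10. Pfkp, the platelet-type phosphofructokinase subunit (probe at chr17:74822635-74822694 on rn4), read 3.71 and 3.80 on the testosterone arrays, against 3.70 and 3.65 on the control arrays. The groups narrowly failed to overlap, and the difference was 0.08 (-0.41 to 0.57). Pfkl, the liver-type subunit, stood at -1.63 and -0.38 with testosterone, against -1.62 and -0.93 in control. Both arrays numbered 1 were low, the groups overlapped, and the difference of 0.27 had a wide interval (-1.11 to 1.65). The single Pfkl spot lay in columns 57 to 85. Aldoa, the aldolase with the brighter probe, gave 5.91 and 6.30 on the testosterone arrays and 5.90 and 6.12 on the control arrays, a difference of 0.10 with overlapping groups. Aldoc, the brain-type aldolase, gave 1.76 and 2.14, against 1.98 and 1.94 in control. It was the only one of the 9 below 0, at -0.01. The remaining 5, the hexokinases Hk1 and Hk2, the isomerases Gpi and Tpi1 and the muscle-type subunit Pfkm, ranged from 0.02 (Hk1) to 0.16 (Tpi1), all with overlapping groups.

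The 6 enzymes from glyceraldehyde phosphate dehydrogenase to pyruvate kinase had a median difference of 0.05. Gapdh, often used as a reference transcript, differed by 0.00 (-0.54 to 0.55) on a probe printed 10 times. Pgk1, Pkm and Eno2, for phosphoglycerate kinase, pyruvate kinase and the neuronal enolase, differed by 0.10, 0.08 and 0.10 with overlapping groups. The brightest probes were saturated, which bounds their signal. The Pgam1 probe, for phosphoglycerate mutase, was saturated on all 4 arrays, with readings of 7.23 and 7.58 with testosterone, against 7.30 and 7.46 in control, and its second, unsaturated probe differed by 0.06. These probes lie on chromosomes 10 and 6 of rn4, while RefSeq places Pgam1 on chromosome 1 (GRCr8) and lists Pgam1 pseudogenes elsewhere, so both may read near-identical copies and the values are uncertain for Pgam1. The Eno1 probe, for the widespread enolase, was saturated on 3 arrays and read 6.94 and 7.39 with testosterone, against 7.39 and 7.22 in control. Its reading differed by -0.14, while the unsaturated second probe of the gene, outside columns 57 to 85, differed by 0.11 (-0.76 to 0.97).

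The lactate dehydrogenase subunits had opposite signs. Ldhb, the heart-type subunit, stood at 6.77 and 6.60 with testosterone, against 6.82 and 6.72 in control. Its groups overlapped, the difference was -0.09 (-0.60 to 0.42), and it was the only one of the 40 genes below 0 within both replicate numbers. Ldha, the muscle-type subunit, read 4.28 and 4.88 with testosterone, against 4.32 and 4.65 in control, a difference of 0.09 (-0.69 to 0.87).

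Lactate leaves through monocarboxylate transporters. Slc16a3, for the export-type transporter MCT4, read 3.60 and 4.36 on the testosterone arrays, against 4.09 and 3.80 on the control arrays. The testosterone arrays enclosed the control arrays, the difference was 0.04 (-0.84 to 0.91), and it was -0.48 within number 1 and 0.56 within number 2. Slc16a1, for MCT1, differed by 0.16, with -0.04 and 0.36 within the numbers. Both probes were single spots in columns 57 to 85.

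Among the 4 regulatory kinases, Pdk1 had the largest difference of the 40 genes. Pdk1 inhibits pyruvate dehydrogenase, and its probe (chr3:54302974-54303274 on rn4) read -0.09 and 0.17 with testosterone, against -1.13 and -0.08 in control. Control array 1 was far below the other 3, while control array 2 lay just above testosterone array 1, so the groups overlapped. The difference was 0.65 (-0.45 to 1.74, unadjusted p = 0.182 and adjusted p = 1.00 in limma). Its single spot lay in columns 57 to 85, in 1 of the 9 array tiles with dropped spots. It differed by 0.12 without control array 1 and by 1.17 without control array 2, where its unadjusted p was under 0.05. Its groups did not overlap after normexp and quantile normalization or under median centring. The part of the spot's position in this value was not tested. Pfkfb4, a bifunctional enzyme that sets the level of an activator of phosphofructokinase, read -1.75 and -2.15 with testosterone, against -2.21 and -1.34 in control. Control array 2 was highest and control array 1 lowest, the difference was -0.17 (-1.16 to 0.82), and this spot also lay in such a tile. Pdk3, a second pyruvate dehydrogenase kinase with the brightest probe of the group, gave 0.58 and 0.81, against 0.45 and 0.92 in control, a difference of 0.01. Pfkfb3, of the same family as Pfkfb4, differed by 0.24 (-0.65 to 1.12).

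The oxygen sensors were read on 3 genes. Egln3, a prolyl hydroxylase that HIF-1 itself induces, read -0.38 and -0.08 with testosterone (probe at chr6:74451958-74452017 on rn4), against -0.72 and -0.41 in control. Both testosterone arrays were narrowly higher than both control arrays. The difference was 0.33 (-0.29 to 0.95), almost the same within number 1 (0.34) as within number 2 (0.33), and the single spot lay outside columns 57 to 85. It was 0.18 without testosterone array 2 or without control array 1, and its groups overlapped after normexp and quantile normalization. Hif1a, the oxygen-regulated HIF-1 subunit, read 6.49 and 7.17 with testosterone, against 6.53 and 6.94 in control. Both arrays numbered 2 were high, and the difference was 0.10 (-0.77 to 0.96). Egln1, the main HIF prolyl hydroxylase, differed by 0.09 (-0.43 to 0.61).

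The 12 remaining hypoxia targets had 11 differences above 0 and a median of 0.20, against 0.08 for the 17 enzymes. Under median centring the medians were 0.01 for the 17 enzymes and 0.11 for all 23 others, which was 0.18 on the 75th percentile scale. The groups of 2 arrays did not overlap for 3 of the 12, all with testosterone higher, beside 6.03% of all genes. Bnip3, a mitophagy receptor on the outer mitochondrial membrane, read 4.39 and 4.72 with testosterone (probe at chr1:198683435-198683494 on rn4), against 4.25 and 4.36 in control. Both testosterone arrays were higher, the lower of them narrowly, and the difference was 0.25 (-0.32 to 0.82), or 0.08 without testosterone array 2. P4ha1, the catalytic subunit of collagen prolyl hydroxylase, read 2.89 and 2.96 with testosterone, against 2.64 and 2.82 in control. Both testosterone arrays were again higher, and the difference was 0.20 (-0.31 to 0.71), with 0.25 within number 1 and 0.14 within number 2, and 0.11 without control array 1. Bnip3 and P4ha1 were the 2 genes of the 40 whose groups overlapped under no setting that kept all 4 arrays, and neither probe lay in columns 57 to 85. Kdm3a, a histone demethylase, read 4.35 and 4.43 with testosterone, against 4.27 and 4.27 in control. The difference was 0.12 (-0.36 to 0.60), and the probe's spot lay in columns 57 to 85. The Kdm3a groups overlapped after normexp and quantile normalization, under median centring and with the mean over probes. Those of Pfkp overlapped under the first 2 of these settings, with a difference of 0.01 in each.

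Larger differences with overlapping groups stood beside these. Adm, for the vasodilator peptide adrenomedullin, read 2.73 and 3.64 with testosterone, against 2.49 and 2.91 in control. Testosterone array 2 was far above the others and control array 1 lowest, and the difference of 0.49 (-0.53 to 1.52) was 0.04 without testosterone array 2 and 0.95 without testosterone array 1, where its unadjusted p was under 0.05. Ankrd37, an ankyrin repeat protein induced by hypoxia, read 2.18 and 2.71, against 2.06 and 2.22 in control, a difference of 0.31 (-0.38 to 0.99) with testosterone array 1 just below control array 2. It was 0.04 without testosterone array 2, and the groups did not overlap under median centring. Mxi1, an antagonist of Myc, gave -2.31 and -1.53, against -2.51 and -2.07 in control, a difference of 0.37 (-0.57 to 1.31) on a spot in columns 57 to 85. Without testosterone array 2 its sign turned, at -0.02. Vegfa, the angiogenic growth factor, read 1.10 and 2.08 with testosterone, against 0.72 and 1.93 in control. Its arrays separated by replicate number far more than by treatment, and the difference of 0.26 had the widest interval of the 40 (-1.23 to 1.75). The sign turned without testosterone array 2 (-0.23) and without control array 1 (-0.34).

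Of the other hypoxia targets, Bnip3l, a second mitophagy receptor with the brightest probe of the group, read 6.91 and 7.28 with testosterone, against 6.96 and 7.14 in control, a difference of 0.05. Car9, the membrane carbonic anhydrase often used as a hypoxia marker, gave -2.41 and -1.83 with testosterone, against -1.92 and -2.15 in control. Its testosterone arrays enclosed its control arrays, and its difference of -0.08 (-0.82 to 0.66) was the only one of the 12 below 0. The oxidase Ero1l, the hydroxylase subunit P4ha2 and the growth inhibitor Ddit4 differed by 0.20, 0.09 and 0.05 with overlapping groups.

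**Figure D2:**
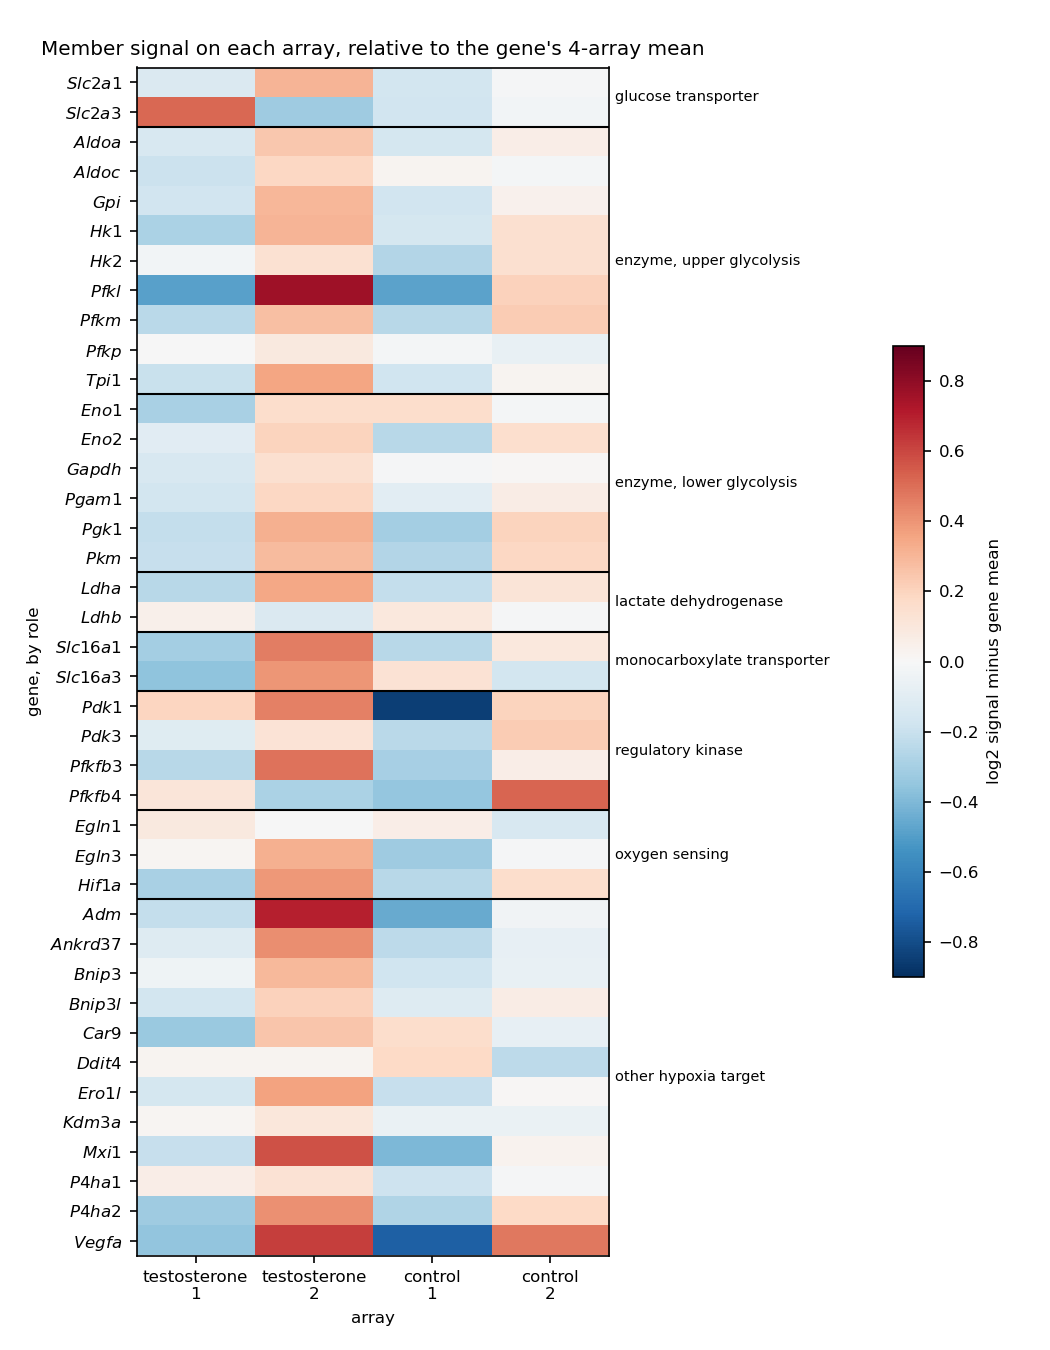
Log2 signal of each gene (vertical axis, by role) on each array (horizontal axis) minus the gene's mean over the 4 arrays; red is above and blue below that mean. The testosterone 2 column is mostly red, being the highest array for 32 of the 40 genes (23 under median centring), and control 1 is the lowest for 20 of them (13 under median centring).

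The arrays differed by replicate number as well as by treatment. Across the 40 genes the median size of the number difference was 0.34 and that of the testosterone difference 0.11, against 0.26 and 0.10 over all genes. The number difference was the larger for 34 of the 40, against 75.7% of all genes. Number 2 was above number 1 for 36 of the 40 in testosterone arrays (60.2% of all genes), with a median of 0.44, and for 32 in control arrays (53.6%), with a median of 0.22. In both groups together this held for 30 of the 40, beside 42.5% of all genes. Testosterone array 2 was the highest of the 4 for 32 of the 40, against 38.9% of all genes. Control array 1 was the lowest for 20 (22.4% of all genes) and testosterone array 1 for 15 (36.2%). Under median centring number 2 was above number 1 for 30 of the 40 with testosterone, against 39.9% of all genes, and for 25 in control, against 36.7%, with medians of 0.21 and 0.06, against -0.12 and -0.13 over all genes. On that scale the number difference was the larger for 29 of the 40, a share of 72.5% beside 74.4% of all genes. Testosterone array 2 was then the highest for 23, against 20.9% of all genes.

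**Figure D3:**
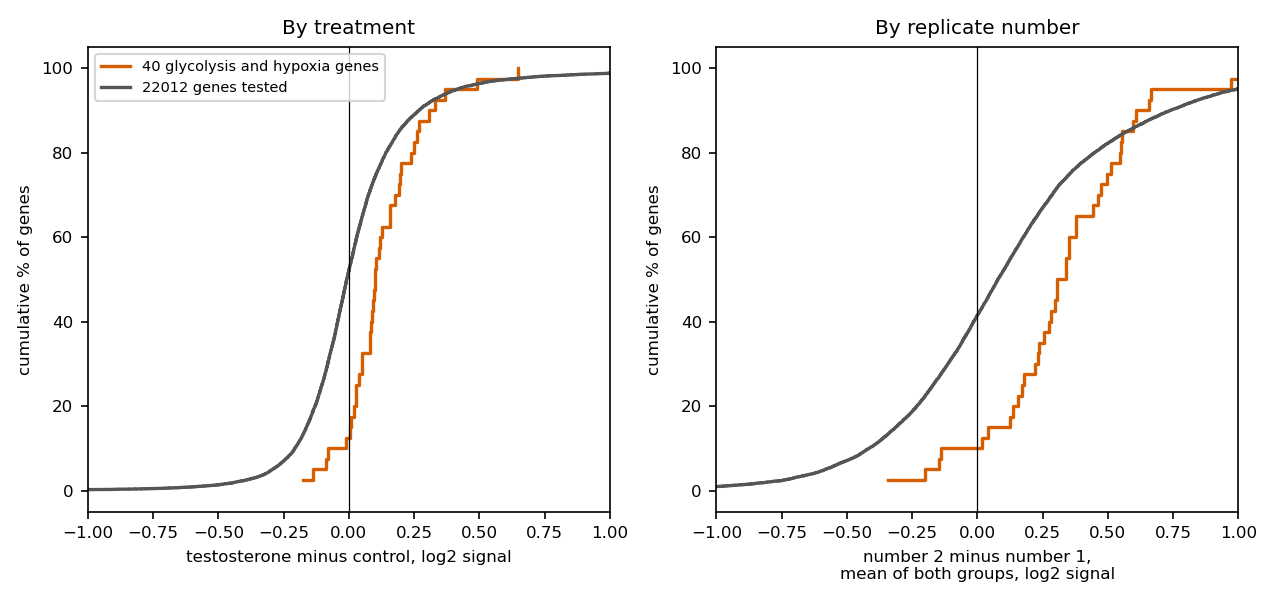
Cumulative percentage of genes (y axis) against the difference in log2 signal (x axis, shown from -1 to 1), for testosterone minus control on the left and for replicate number 2 minus number 1 on the right. Around the middle of the curves the 40 genes lie to the right of all 22012 genes in both panels. The medians by treatment are 0.10 and -0.01 (0.03 and -0.07 under median centring). In the upper tail by treatment the curves cross, the largest difference being 0.65 for the 40 genes and 6.20 over all genes.

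Within replicate numbers the counts differed. Within number 1 the testosterone array was above the control array for 23 of the 40 genes (38.0% of all genes), with a median of 0.02. Within number 2 it was above for 35 of the 40 (56.6%), with a median of 0.19. Over all genes the 2 medians were -0.06 and 0.04. Under median centring the counts were 19 within number 1 and 32 within number 2, beside 32.9% and 39.3% of all genes. The medians were then -0.01 and 0.09, against -0.09 and -0.06 over all genes. For 19 of the 40 the difference was above 0 within both numbers, beside 19.3% of all genes (13 of the 40 and 11.9% under median centring), and for 1, Ldhb, it was below 0 within both, beside 24.7%. By role, 6 of the 17 enzymes and 13 of the 23 others were above 0 within both. Germ cell markers moved with the same number: their summed signal, in multiples of the 75th percentile, was 0.572 and 6.46 on testosterone arrays 1 and 2, against 0.701 and 6.43 on control arrays 1 and 2, with 4 of 10 on the array well above background on all 4 and Pgk2 and Acrv1 on none. Macrophage markers summed to 156 and 142 with testosterone, against 176 and 141 in control, and fibroblast markers to 378 and 475, against 352 and 443. Endothelial markers summed to 0.7 and 1.15 with testosterone, against 0.836 and 1.67 in control, and were thus also higher on the arrays numbered 2. Leydig markers summed to 94.7 and 122, against 102 and 106, and Sertoli markers to 23.6 and 23.4, against 25.1 and 24.5. The part of these cells, or of slide position, in the number difference was not tested.

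**Figure D4:**
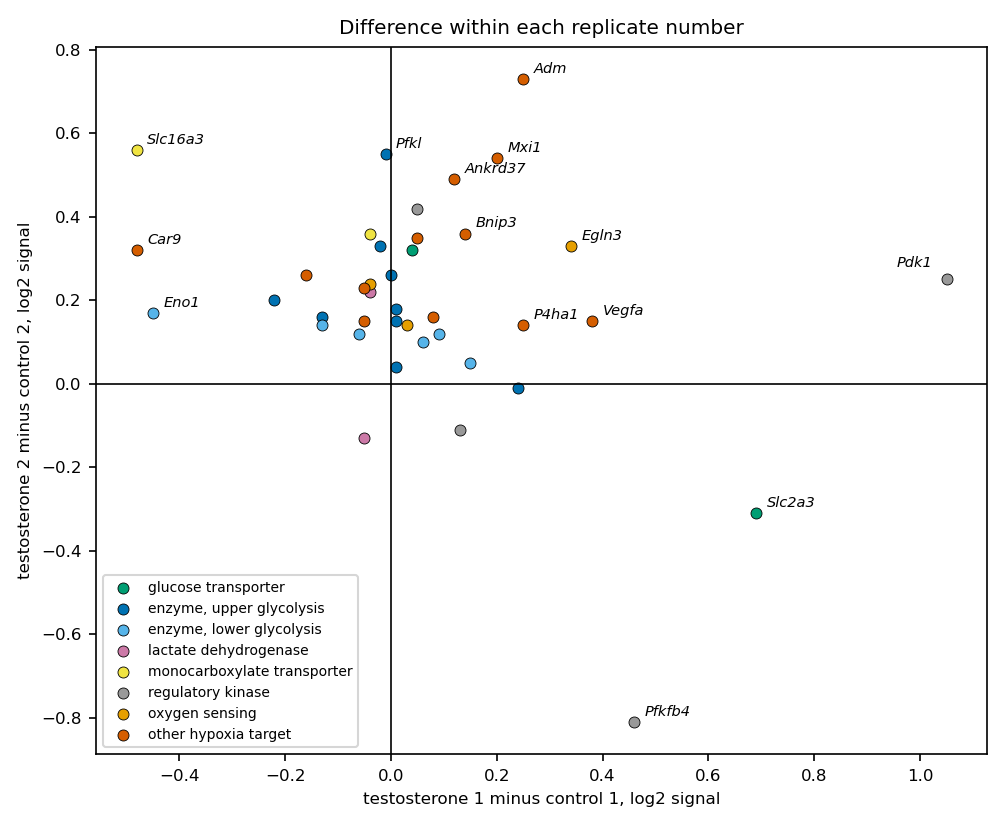
Each gene's testosterone minus control difference within replicate number 1 (x axis) and within number 2 (y axis), in log2 signal, coloured by role. The upper right part holds the 19 genes above 0 within both numbers (13 under median centring), and Ldhb lies alone in the lower left.

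The same description was made within ranges of mean level. Among genes whose mean level lay between 2 and 5, all 17 of the 40 in that range had differences above 0 with a median of 0.12, while the other 3688 genes there had 36.1% above 0 and a median of -0.03. Between 5 and 9, 8 of 10 were above 0 with a median of 0.07, against 47.7% of the other 1285 genes and a median of -0.01. These splits use the 75th percentile scale, and under median centring the shares above 0 over all levels were 67.5% of the 40 and 31.9% of all genes. Leaving out saturated probes and single spots in columns 57 to 85, along with every other gene with a spot there, left 22 genes, 20 of them above 0, with a median of 0.10.

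Repeated spots gave the technical error within an array. For the 8 genes with a probe printed 10 times (Adm, Gapdh, Hif1a, Ldha, Pdk3, Pgk1, Slc2a1 and Vegfa), the SD between kept spots ran from 0.04 to 0.15, with a median of 0.06. For Adm the spot SD was 0.08 and 0.06 on testosterone arrays 1 and 2, against 0.13 and 0.07 on control arrays 1 and 2. Testosterone array 2 stood above the other 3 arrays by more than this spread in every kept Adm spot. On control array 1 an outlier-flagged Gapdh spot read 3.14 against 6.28 to 6.50 for the kept ones, and the lower of 2 flagged Vegfa spots read -0.29 against 0.67 to 0.86. Such spots were left out of the means. Of the 34 genes read on a single spot, 11 lay in columns 57 to 85, and control array 1 was the lowest array for 4 of the 11.

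**Figure D5:**
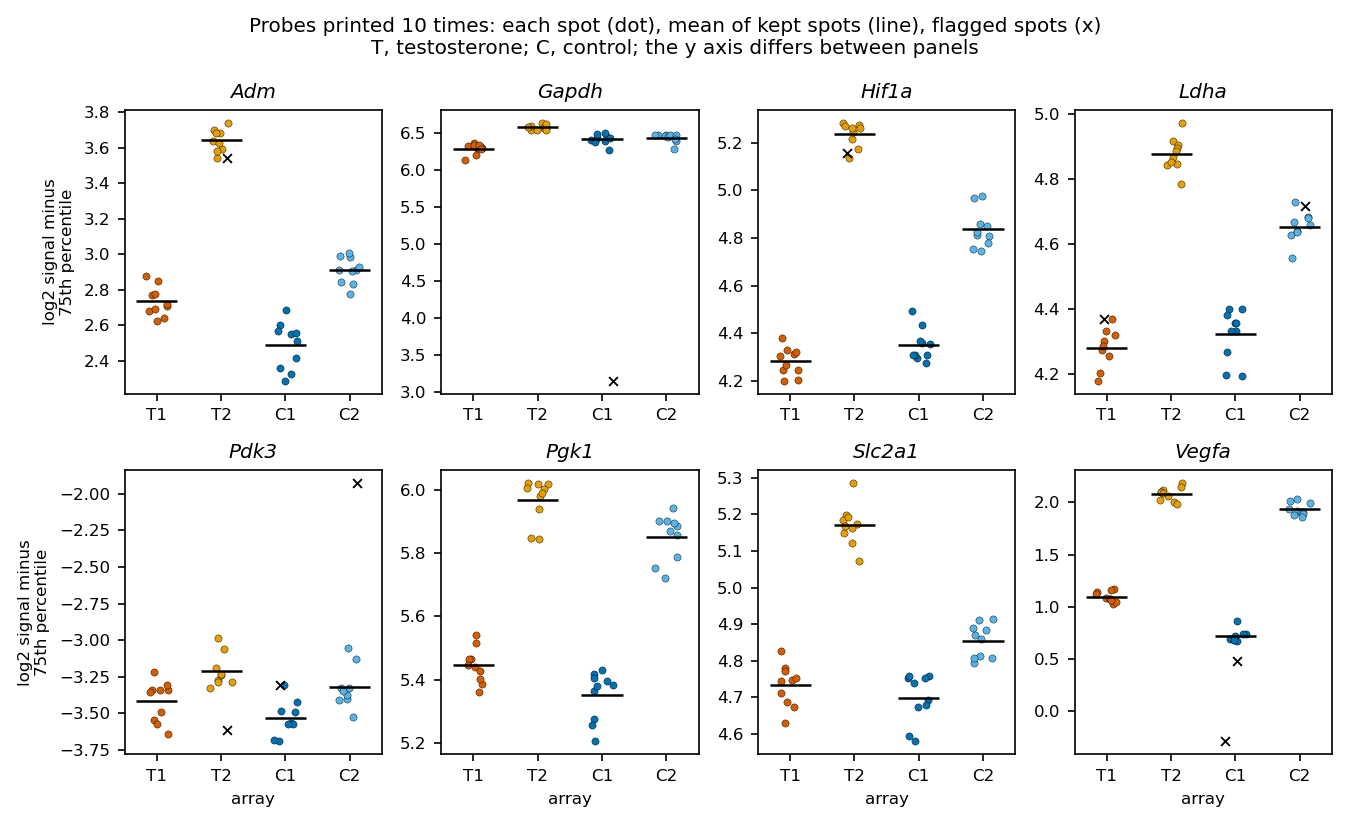
Log2 signal minus the 75th percentile (y axis, its range differing between panels) of every spot of the 8 probes printed 10 times, on testosterone (T1, T2) and control (C1, C2) arrays. Dots are kept spots, lines their means and crosses outlier-flagged spots; the kept spots of an array lie within an SD of 0.04 to 0.15.

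A second probe was present for 10 genes, and 8 of the pairs had no difference in sign. The Ero1l probes both differed by 0.20, the Vegfa probes both by 0.26, and the Kdm3a probes by 0.12 and 0.15. The Hk1 probes differed by 0.02 and -0.17, and the Eno1 probes by -0.14 and 0.11 as above. The 10-spot Hif1a probe, dimmer than the one used, read 4.28 and 5.24 with testosterone, against 4.35 and 4.84 in control, and differed by 0.16.

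Other genes of the same pathways were read from lists drawn up by pathway. Of 28 further genes of glucose and pyruvate metabolism tested (37 listed, 32 on the array), 0 passed the test in either direction at an adjusted p under 0.05 in limma, and 0 had an unadjusted p under 0.05. Their differences were above 0 for 6 (21.4%, against 47.9% of all genes) and below for 22. The median was -0.07, or -0.14 under median centring, against -0.01 and -0.07 over all genes. The groups did not overlap for 1 above and 4 below, beside 6.03% and 9.10% of all genes. The largest differences were those of Gapdhs (-0.97) and Ldhc (-0.38), the sperm forms of glyceraldehyde phosphate dehydrogenase and lactate dehydrogenase. Above 0 the largest were those of Ldhd (0.32) and the pyruvate dehydrogenase subunit Pdha1 (0.20). Gapdhs read -4.95 and -3.85 with testosterone, against -2.29 and -4.56 in control, and Ldhc read -5.36 and -0.99, against -4.36 and -1.22. Both were read on single spots in columns 57 to 85. Their intervals were wide, at -3.31 to 1.36 for Gapdhs and -5.28 to 4.51 for Ldhc. Gapdhs is also 1 of the 4 germ cell markers above, and in control it ran against their sum, being lower on array 2. Control array 1 was the high one for Gapdhs, and Ldhc was high on both arrays numbered 2.

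Of 40 further hypoxia genes tested (47 listed, 42 on the array), 0 passed the test in either direction in limma and 0 had an unadjusted p under 0.05. Their differences were above 0 for 25 (62.5%, against 47.9% of all genes) and below for 15. The median was 0.05, but -0.01 under median centring, against -0.01 and -0.07 over all genes. The groups did not overlap for 7 above and 3 below, beside 6.03% and 9.10% of all genes. Kdm4b, a histone demethylase of another family than Kdm3a, read -3.86 and -3.96 with testosterone, against -4.23 and -4.80 in control. Both testosterone arrays were higher, and its difference of 0.61 (-0.10 to 1.32) had an adjusted p of 1.00 in limma. Ak4, a mitochondrial adenylate kinase, read 0.82 and 1.07 with testosterone, against 0.64 and 0.48 in control. Its groups did not overlap either, and the difference was 0.39 (-0.16 to 0.94) on a spot in columns 57 to 85. On the other side were Stc2, for the secreted glycoprotein stanniocalcin 2, at -0.29 with overlapping groups, and the kinase Pim1 at -0.21 with both testosterone arrays below both control arrays.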

How the data were processed

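RNA of 2 testosterone and 2 control samples was hybridised to 1-colour Agilent rat arrays. Groups and replicate numbers came from the titles. Per the file headers, Feature Extraction 11.5.1.1 wrote the scanner files, and the submitters' processing notes name version 10.5. In the deposited scanner files the processed signal of a spot is a linear intensity, with flags, and probe positions on build rn4, with no exon or UTR annotation used here. The authors' deposited table holds log2 values, and over 40749 probes printed once each value was the scanner's log2 processed signal less a constant per array (8.79 and 8.38 with testosterone, 8.63 and 8.55 in control). Its scale and direction are thus known, its genes were not centred, and its column medians were -3.61 and -3.34 with testosterone, and -3.62 and -3.45 in control.

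Each array's 75th percentile was taken over all its non-control spots and subtracted from the log2 processed signal. Outlier-flagged spots were then left out and the spots of a probe averaged. A probe was tested if well above background on both arrays of a group, and the probe with the brightest mean stood for its gene. Of 41012 probes, 3602 were named by accession, 12434 by symbol and 3440 by an older symbol in the GRCr8 gene table, and 21536 kept the file's name. Groups were compared with limma 3.58.1 in R 4.3.3 (lmFit, eBayes, 2-sided, Benjamini-Hochberg over all genes), without covariates. The smallest 2-sided p of an exact permutation test on 2 against 2 arrays is 0.333. The number of arrays limits the precision.

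Dropped spots were those over 2 log2 lower than on each other array where those exceeded -2, and tiles of 28 array lines by 17 array columns with at least 2 dropped spots were counted. Per-array values are given for the genes whose groups did not overlap, the 8 largest unsaturated differences in each direction, the brightest probe of each role, saturated genes and any unadjusted p under 0.05, and for further pathway genes the 2 largest each way. A few values beyond that rule were added as examples after they were seen. The genes and lists were chosen with earlier results of these data known. Deviations from the group means correlated at 0.471 within each replicate number, but the labels do not say what the number marks and there are only 2 pairs, so arrays were not paired.

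Alternatives were normexp (offset 50) with quantile normalization, median centring, the deposited table, other detection filters, the mean over probes, leaving out saturated probes, columns 57 to 85 or tiles, a block, an intensity trend, and leaving out each array.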

Additional observations from a re-analysis of the deposited data

How the results depend on the processing

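Under every alternative that kept all 4 arrays, 0 genes were called in limma. The genes above 0 numbered 32 after normexp and quantile normalization, 27 under median centring, 35 in the authors' table, 34 with the mean over probes and 36 without saturated probes. They were 30 of 32 without columns 57 to 85 and 34 of 38 without tiles holding dropped spots. The median of the genes ran from 0.03 (median centring) to 0.11 (without the columns), and the genes whose groups did not overlap from 4 to 7. Signs changed for 8 genes under median centring (Hk1, Pfkm, Gapdh, Pgam1, Slc16a3, Pdk3, Bnip3l and Ddit4) and for 5 under normexp (Aldoc, Gapdh, Pgam1, Pkm and Pdk3), none of them called.

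Leaving out 1 array gave 0 to 35 genes called (35 without control replicate 2, none of the 40), 13 to 37 of the 40 above 0 (13 without testosterone replicate 2, 20 without control replicate 1), medians from -0.11 to 0.32 (-0.11 without testosterone replicate 2, 0.32 without testosterone replicate 1, 0.26 without control replicate 2), and 10 to 34 without overlap. Over all genes, 39.2% to 57% were above 0 in these fits. The groups did not overlap, with testosterone higher, for 7 to 32 of the 40, beside 19.2% to 41.3% of all genes. With 3 arrays groups part more easily, replicate numbers are unbalanced, and the lone array is assumed to vary like the other group.

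The count at an unadjusted p under 0.05 was 174, but 38 under normexp, 628 with no detection filter, 75 with detection on all 4 arrays, 75 with an intensity trend, and 100 without the columns, and 122 to 552 with 1 array left out. The cause was not tested. With replicate number as a block it was 617 (2.80%), with 0 called, a smallest adjusted p of 0.563 and 0 of the 40 (Pdk1 0.0618 and Adm 0.0625 unadjusted), and the block changed no call. The numbers give only 2 pairs and no stated link.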
